A study of Mus musculus with 8 samples.

Results

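Baf60c is one of 3 exchangeable BAF60 subunits of the BAF complex, an enzyme that moves nucleosomes and so opens or closes chromatin. This account follows what was lower and higher when Baf60c (gene symbol Smarcd3) was knocked down in muscle cells kept at the higher of 2 glucose concentrations. The comparison is between 4 of the 8 arrays of the study, 2 knockdown and 2 control samples, chosen by their labels and not by any measured value; the other 4 entered the fit for the estimate of spread and serve as a comparison. The cells were C2C12, an established mouse myoblast line that fuses into contractile myotubes in culture. Myoblasts were infected with a retrovirus carrying a scrambled control sequence or an shRNA against Baf60c, grown into myotubes, and held at 10 mM glucose for 12 h. The other 4 arrays hold the same 2 shRNA groups after 12 h at 1 mM glucose, again 2 each. Replicates are described as independent biological replicates of 1 cell line, and the labels give 1 shRNA per group, so a change due to the shRNA sequence itself cannot be told apart from a change due to Baf60c.

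In muscle, BAF60 proteins are known to link the BAF complex to the myogenic regulator MyoD at the start sites of muscle genes, and Baf60c is known from work on fast, glycolytic fibres. MyoD and its partners bind the E-box, MEF2 proteins bind an A/T-rich box, and serum response factor binds the CArG box; all of them stand before many contractile genes. Contractile genes are switched on as myotubes form and mature. In total RNA of a culture, fewer cells of a type and less RNA per cell cannot be told apart.

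Values are log2 expression values of the deposited table, changes are knockdown minus control on the log2 scale ± SE with n = 2 arrays per group, and adjusted p-values come from limma over 13308 tested genes. Genes with an adjusted p under 0.05 are called. A log2 value under 3 is dim, and signal above background was not shown there. The 2 control arrays correlated at 0.988 across genes and the 2 knockdown arrays at 0.990, and array medians lay between 5.89 and 6.02. The myotube label was borne out by its markers in the control arrays: Acta1 read 11.68 and 11.70, Myh3 10.59 and 10.77, and Myog 10.02 and 10.16.

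The targeted gene was read through a probe set that is assigned to both Smarcd3 and Chpf2, a chondroitin synthesis gene. It read 6.27 and 6.09 in the control arrays and 3.90 and 4.49 in the knockdown arrays. Both knockdown arrays lay below both controls, by 1.98 ± 0.22 on average (a 3.95-fold fall, 95% confidence interval of the log2 change -2.48 to -1.48, adjusted p = 0.0171). How much of this signal is Chpf2 was not resolved. The adjusted p was 0.0793 with the 4 arrays at 10 mM alone and rose past the threshold when any 1 of these 4 arrays was left out. The other BAF60 genes were not called. Smarcd1 differed by 0.06 ± 0.25 (95% interval -0.53 to 0.66) and Smarcd2 by 0.01 ± 0.17 (-0.38 to 0.40).

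Among called genes, knockdown myotubes had less RNA of contractile and other muscle genes and more RNA of a smaller set. limma called 149 genes (1.12% of those tested), 92 lower (0.691%) and 57 higher (0.428%), and 102 of them differed by at least 2-fold (0.766%). At an unadjusted p under 0.05 there were 1807 genes (13.6%), 903 higher and 904 lower, so the excess of falls was seen among the called genes and not there. The called changes ran from 0.71 to 2.59 in size with a median of 1.14, and 22 called genes had a dim group mean. In all 149 called genes the arrays of the groups did not overlap, so this separation sets no called gene apart from another. The share of all tested genes with such separation was not computed, so it is not read as support for a call. These calls rest on all 4 arrays: leaving out control replicate 1 at 10 mM left 11, and leaving out control replicate 2, knockdown replicate 1 or knockdown replicate 2 left 0 each, with 1457, 1272 and 1320 genes at an unadjusted p under 0.05. Leaving out an array at 1 mM, which enters through the shared estimate of spread, left 28 (either control) or 76 (either knockdown).

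**Figure D1:**
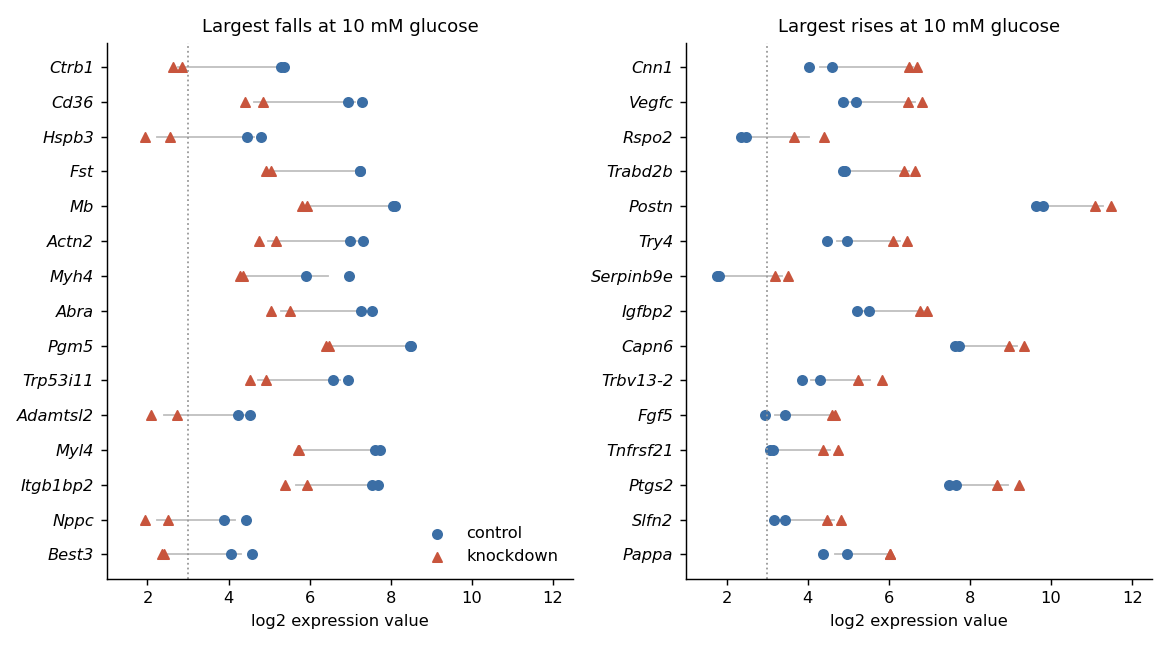
The log2 values of the called genes with the largest falls and rises on each of the 4 arrays at 10 mM glucose. Circles are control arrays, triangles are knockdown arrays, a grey line joins the group means, and the dotted line at 3 marks dim signal; Cnn1 lies at 4.60 and 4.02 in control and 6.49 and 6.69 in knockdown arrays.

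The falls with the largest size joined contractile genes with genes of lipid uptake, secretion and stress. Ctrb1, a chymotrypsinogen gene best known from pancreas, read 5.38 and 5.31 in control arrays and 2.64 and 2.86 in knockdown arrays (-2.59 ± 0.17, a 6.03-fold fall, adjusted p = 0.00324). Cd36, a fatty acid transporter, read 6.95 and 7.30 in control against 4.40 and 4.84 in knockdown arrays (5.68-fold lower, adjusted p = 0.0139). Hspb3, a small heat shock protein of muscle, read 4.80 and 4.46 against 1.93 and 2.55 (-2.39 ± 0.25, adjusted p = 0.0175). Of these, Ctrb1 and Hspb3 ended in dim signal. Fst, the secreted inhibitor of myostatin and activin, stood at 7.25 and 7.23 in control and at 5.05 and 4.93 in knockdown arrays (4.76-fold lower, adjusted p = 0.00324). Mb, the oxygen-binding myoglobin gene, stood at 8.11 and 8.05 against 5.93 and 5.80 (4.63-fold lower, adjusted p = 0.018). Abra, an actin-binding activator of serum response factor signalling, stood at 7.26 and 7.54 against 5.52 and 5.05 (4.32-fold lower, adjusted p = 0.0139). The replicates of Fst and Mb lay within narrow ranges, far from the other group. Pgm5, an adhesion-associated relative of phosphoglucomutase, fell from 8.51 and 8.48 to 6.40 and 6.47, and Trp53i11 from 6.57 and 6.94 to 4.93 and 4.52 (4.17-fold and 4.08-fold, adjusted p = 0.0242 for both). Itgb1bp2 (melusin), an integrin-binding muscle protein, read 7.54 and 7.68 against 5.95 and 5.40. Adamtsl2, Nppc (C-type natriuretic peptide) and Best3, a chloride channel gene, also fell 3.88-fold, 3.83-fold and 3.81-fold, each to dim signal.

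Among the rises, Cnn1 (calponin), an actin-binding protein of smooth muscle, was largest: 4.60 and 4.02 in control arrays against 6.49 and 6.69 in knockdown arrays (2.28 ± 0.27, a 4.84-fold rise, adjusted p = 0.0242). Vegfc, a growth factor of lymphatic vessels, read 5.18 and 4.88 against 6.47 and 6.81 (3.05-fold, adjusted p = 0.0242). Trabd2b, a membrane protease that acts on Wnt ligands, read 4.87 and 4.93 against 6.37 and 6.63 (3.04-fold, adjusted p = 0.0139). Several of the other rises encode secreted proteins. Postn, the matricellular protein periostin, went from 9.81 and 9.63 to 11.08 and 11.48 (2.95-fold), though close to the threshold (adjusted p = 0.0491). Igfbp2, a binder of insulin-like growth factors, went from 5.22 and 5.51 to 6.78 and 6.95 (2.82-fold, adjusted p = 0.0284), and Pappa, a protease that cuts such binders, from 4.97 and 4.38 to 6.03 and 6.02 (2.55-fold, adjusted p = 0.0394). Ptgs2, the inducible cyclooxygenase, read 7.66 and 7.48 against 8.66 and 9.20 (2.57-fold, adjusted p = 0.0327). Capn6, a calpain without protease activity, read 7.64 and 7.72 against 8.97 and 9.33 (2.77-fold, adjusted p = 0.0175). The knockdown replicates of Ptgs2 and Capn6 were farther apart than the control replicates. Fgf5, Tnfrsf21 (death receptor 6), Slfn2, Rspo2 and Serpinb9e also rose, by 1.45, 1.44, 1.35, 1.61 and 1.56, the last 2 from dim signal. Try4, Trbv13-2 and Serpinb9e belong to families of near-identical genes, so which copy was measured is uncertain; Try4 rose by 1.56 and Trbv13-2 by 1.46.

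The promoters of the 3 genes with the largest falls, clone-named genes such as C130080G10Rik (-2.51) set aside, and of Cnn1 are shown to set these genes beside the factor binding sites named above, and those of Myh4 and Myom1, chosen after their values were seen, because they hold a CArG box. Sequences are RefSeq's, build GRCm38.p6, 250 bases before to 50 bases after the annotated start, 5′ to 3′ on the gene's strand. Capitals mark E-boxes (CANNTG), MEF2 boxes and CArG boxes, searched on both strands; the E-box form CAGCTG is counted within CANNTG.
Ctrb1, chr8:111690961-111691260, minus strand: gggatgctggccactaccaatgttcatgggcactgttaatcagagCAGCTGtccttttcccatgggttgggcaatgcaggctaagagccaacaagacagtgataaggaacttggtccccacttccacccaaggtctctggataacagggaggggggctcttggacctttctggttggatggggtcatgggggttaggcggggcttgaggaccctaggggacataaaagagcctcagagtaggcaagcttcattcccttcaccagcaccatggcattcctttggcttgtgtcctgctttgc
Cd36, chr5:17835847-17836146, minus strand: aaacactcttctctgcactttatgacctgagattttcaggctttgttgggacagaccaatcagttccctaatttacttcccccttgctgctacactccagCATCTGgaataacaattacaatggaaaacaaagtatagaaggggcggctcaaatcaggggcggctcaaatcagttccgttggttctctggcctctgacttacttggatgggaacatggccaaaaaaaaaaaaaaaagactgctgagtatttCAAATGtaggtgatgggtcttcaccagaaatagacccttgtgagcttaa
Hspb3, chr13:113663627-113663926, minus strand: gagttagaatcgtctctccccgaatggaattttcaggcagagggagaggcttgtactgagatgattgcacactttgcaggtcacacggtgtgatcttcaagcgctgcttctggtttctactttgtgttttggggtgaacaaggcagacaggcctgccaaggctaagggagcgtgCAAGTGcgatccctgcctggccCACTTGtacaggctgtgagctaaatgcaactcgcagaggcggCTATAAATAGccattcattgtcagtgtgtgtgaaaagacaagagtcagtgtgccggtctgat
Cnn1, chr9:22099003-22099302, plus strand: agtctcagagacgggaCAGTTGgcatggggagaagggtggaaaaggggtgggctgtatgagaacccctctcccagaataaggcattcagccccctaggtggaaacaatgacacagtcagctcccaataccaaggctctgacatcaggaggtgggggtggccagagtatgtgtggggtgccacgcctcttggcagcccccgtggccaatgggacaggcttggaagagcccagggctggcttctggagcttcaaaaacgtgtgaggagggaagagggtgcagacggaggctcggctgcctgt
Myh4, chr11:67237562-67237861, plus strand: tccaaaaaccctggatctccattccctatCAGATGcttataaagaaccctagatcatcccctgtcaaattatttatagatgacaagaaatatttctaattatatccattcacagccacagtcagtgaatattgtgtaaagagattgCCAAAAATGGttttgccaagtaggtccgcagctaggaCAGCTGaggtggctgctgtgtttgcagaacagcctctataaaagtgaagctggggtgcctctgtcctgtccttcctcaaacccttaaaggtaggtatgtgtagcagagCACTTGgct
Myom1, chr17:71019307-71019606, plus strand: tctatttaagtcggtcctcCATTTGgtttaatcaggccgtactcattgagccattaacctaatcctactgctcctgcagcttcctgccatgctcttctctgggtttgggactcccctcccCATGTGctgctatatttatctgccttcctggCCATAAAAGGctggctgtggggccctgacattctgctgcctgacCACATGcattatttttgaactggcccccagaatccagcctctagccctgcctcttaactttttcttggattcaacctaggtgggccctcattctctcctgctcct
Ctrb1 and Cnn1 held 1 E-box each, Cd36 and Hspb3 2 each and Myh4 and Myom1 3 each. The form of the MEF2 box that was searched stood in Hspb3 alone among these 6. Looser A/T-rich forms, such as ttatttatag in Myh4, were not counted, so no absence of a MEF2 site is read from the search. Of the 92 genes called lower, 72 had a promoter in the table. A CANNTG stood in 73.6% of those 72, against 63.8% of the 10370 tested genes with a promoter and 72.1% of all 27025 promoters in the table. For CAGCTG the shares were 26.4%, 15.5% and 16.1%, and for the CArG box 6.94%, 1.37% and 1.57%. Of the 37 genes called higher with a promoter, 67.6% held a CANNTG and 21.6% a CAGCTG, so both called groups lay above the share of tested genes. The CArG box was found in 5 genes called lower (Actc1, Dmd, Lama2, Myh4 and Myom1) and 1 called higher (Myl9). In the form searched, the MEF2 box was found in Hspb3 and Myoz2 among the genes called lower and in Klhl33 among those called higher. That is 2.78% of 72 and 2.7% of 37 against 0.482% of tested genes. These are letters in a 300-base window and not measured binding, and the counts of genes are small.

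The 8 lists of contractile, calcium, membrane and energy-buffer genes of muscle held 130 tested genes. Of these 27 fell and 0 rose, and 111 had a change below zero; at an unadjusted p under 0.05, 76 were lower and 2 higher. Their median change was -0.56, against 0.01 for all tested genes. Over all tested genes 0.691% were called lower and 0.428% higher. With the 4 arrays at 10 mM alone, 2 of the 130 were called, and leaving out 1 array left between 0 and 21.

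**Figure D2:**
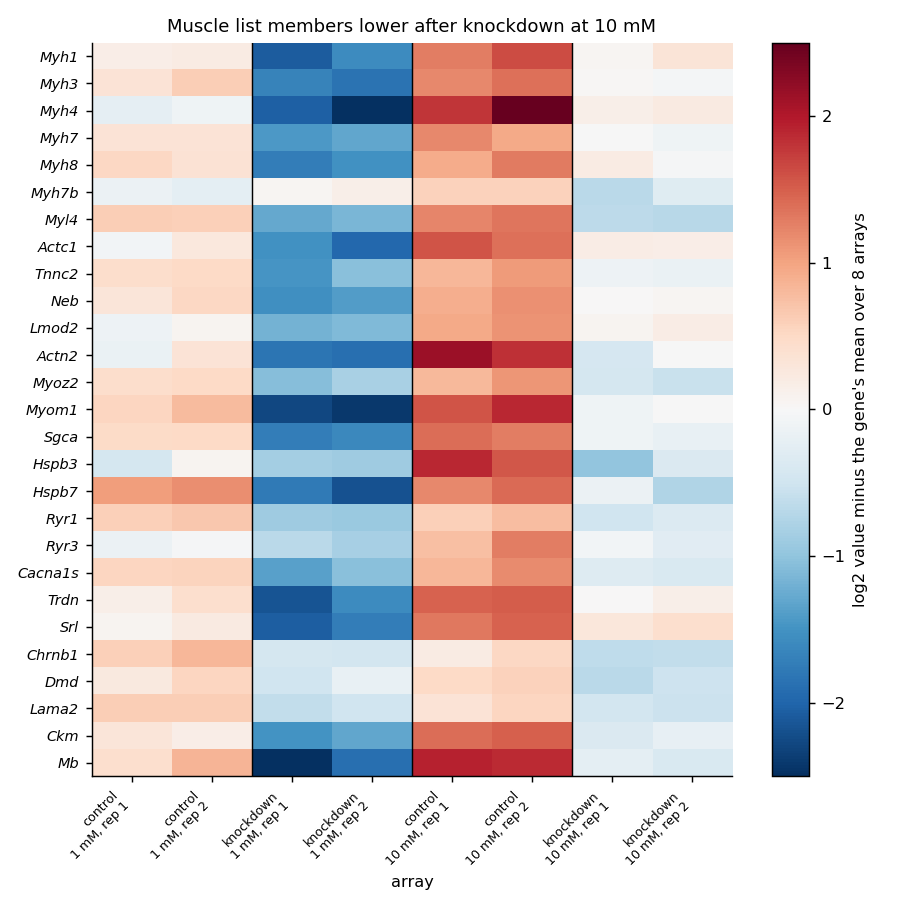
Heat map of the 27 muscle list members that fell, one row per gene, with 1 column for each of the 8 arrays; the colour is the log2 value minus the gene's mean over the 8 arrays, clipped at the ends of the scale. At 10 mM the knockdown columns lie below the control columns in every row, as for Myom1, which read 6.99 and 7.31 in control against 5.33 and 5.42 in knockdown arrays at 10 mM. The rows were chosen as called lower on these arrays, and the groups were separate in all 149 called genes.

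Myosins, the motor proteins of the thick filament, held the most calls for their number: 7 of 14 fell, 0 rose, and the median was -1.09. Myl4, the embryonic and atrial light chain, read 7.61 and 7.74 in control against 5.74 and 5.71 in knockdown arrays (3.87-fold lower, adjusted p = 0.00324). Myh4, the fastest adult heavy chain (IIb), read 5.92 and 6.98 against 4.29 and 4.36 (4.36-fold lower, adjusted p = 0.0424). Its control arrays were far apart. Myh3, the embryonic heavy chain, read 10.59 and 10.77 against 9.42 and 9.35 (2.46-fold lower, adjusted p = 0.0242). Myh7, the slow heavy chain, read 5.45 and 5.18 against 4.23 and 4.14 (2.19-fold lower). Embryonic, slow and fast forms thus all fell. Myh1 (IIx), Myh8 (perinatal) and Myh7b fell by 1.27, 1.02 and 1.06, Myh7b to dim signal. Heavy chain genes are close in sequence, and how far their probe sets share transcripts was not tested; a dim second probe set of Myh8 differed by -0.59. Mylpf, the fast regulatory light chain, was not called (11.22 and 11.56 against 11.02 and 11.09, adjusted p = 0.506).

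In the thin filament list, 4 of 21 fell, 0 rose and the median was -0.62. Actc1, cardiac actin that is also made by young skeletal muscle, read 9.35 and 9.17 against 7.96 and 7.95 (2.48-fold lower, adjusted p = 0.0332). Neb, the giant protein that runs along the filament, read 10.04 and 10.27 against 9.12 and 9.16 (2.01-fold lower). Tnnc2, fast troponin C, fell by 1.10 and Lmod2, which seeds actin filaments, by 0.90. Acta1, the main skeletal actin, was not called (11.68 and 11.70 against 11.14 and 11.22, -0.50 ± 0.13, adjusted p = 0.137), and neither was Tnnt3, fast troponin T (-0.84 ± 0.18, adjusted p = 0.0913). In the Z-disc and M-band list, 4 of 30 fell, 0 rose and the median was -0.49. Actn2, which crosslinks thin filaments at the Z-disc, read 7.32 and 6.99 against 4.76 and 5.17 (4.58-fold lower, adjusted p = 0.0166). Myom1, which crosslinks thick filaments at the M-band, fell 3.43-fold (adjusted p = 0.0112). Myoz2, a calcineurin-binding Z-disc protein, fell 2.74-fold and Sgca, a sarcoglycan that this list also holds, 2.82-fold from 7.76 and 7.64 to 6.24 and 6.17. Ttn (titin) was at -0.83 ± 0.16 and did not pass (adjusted p = 0.066), and Des (desmin) was at -0.26 ± 0.13 (adjusted p = 0.448).

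Among genes that couple excitation to contraction, 5 of 25 fell, 0 rose and the median was -0.77. Ryr1, the calcium release channel of the sarcoplasmic reticulum, read 8.54 and 8.71 against 7.44 and 7.60 (2.15-fold lower, adjusted p = 0.0242). Cacna1s, the voltage sensor that opens it, read 7.75 and 8.11 against 6.59 and 6.53 (2.58-fold lower, adjusted p = 0.0242). Trdn (triadin), which ties the channel to the calcium store, read 8.68 and 8.73 against 7.22 and 7.36 (2.66-fold lower). The channel, its sensor and its anchor thus moved the same way. Srl (sarcalumenin), a calcium binder of the store, fell 2.07-fold and Ryr3, a second release channel, 2.28-fold to dim signal. Atp2a1, the fast calcium pump, fell short of the threshold (8.24 and 8.75 against 7.23 and 7.12, -1.32 ± 0.23, adjusted p = 0.0504), as did Casq1, the calcium store protein (-1.18 ± 0.31, adjusted p = 0.15).

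Genes of the muscle fibre membrane, small heat shock proteins and energy buffers were read next. Chrnb1, a subunit of the acetylcholine receptor, fell 1.99-fold (8.33 and 8.64 against 7.49 and 7.50), the 1 call among 10 genes of the neuromuscular junction (median -0.54). Dmd (dystrophin) read 4.32 and 4.40 against 3.15 and 3.29, and Lama2, the laminin that the dystrophin complex binds, 8.18 and 8.37 against 7.38 and 7.31; these 2 of 12 genes of that complex fell, 2.20-fold and 1.91-fold (median of the 12, -0.15). Sgca, which fell and was counted above with the Z-disc list, is a further member of the dystrophin complex that these 12 do not include. Of 5 small heat shock proteins, Hspb3 and Hspb7 fell, and the median was -0.17; Hspb7 read 7.21 and 7.42 against 5.85 and 5.24 (3.40-fold lower). Of 13 genes that buffer energy or oxygen, Mb and Ckm fell (median -0.32). Ckm, the creatine kinase of muscle, read 6.71 and 6.81 against 4.95 and 5.10 (3.32-fold lower, adjusted p = 0.00658), while its second probe set was dim in both groups and showed no such difference (-0.06).

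Of 21 myogenic transcription factor genes 3 fell, 0 rose, and the median was -0.16. Over all tested genes 0.691% were called lower, 1.12% were called in either direction and 13.6% had an unadjusted p under 0.05. Mef2c, a MEF2 factor of late differentiation, read 8.63 and 8.72 against 7.26 and 7.39 (2.54-fold lower, adjusted p = 0.0295), and its second probe set was lower by 1.59. Smyd1, a muscle methyltransferase needed for myofibril assembly, read 6.12 and 6.45 against 5.35 and 5.35 (1.91-fold lower, adjusted p = 0.0469). Myog (myogenin) read 10.02 and 10.16 against 9.32 and 9.12 (1.82-fold lower, adjusted p = 0.0491). Myod1 was at -0.75 ± 0.22 and did not pass (adjusted p = 0.188). None of 15 fusion genes was called (8 at an unadjusted p under 0.05, 6 of them lower), although Mymk, the fusogen myomaker, came near (11.35 and 11.46 against 10.55 and 10.67, -0.79 ± 0.15, adjusted p = 0.0579). None of 17 myoblast and satellite cell genes was called either (6 at an unadjusted p under 0.05, 4 of them lower; median -0.15). Pax7, the satellite cell factor, read 3.40 and 3.40 against 4.65 and 3.60, so that 1 of its knockdown arrays stood apart.

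**Figure D3:**
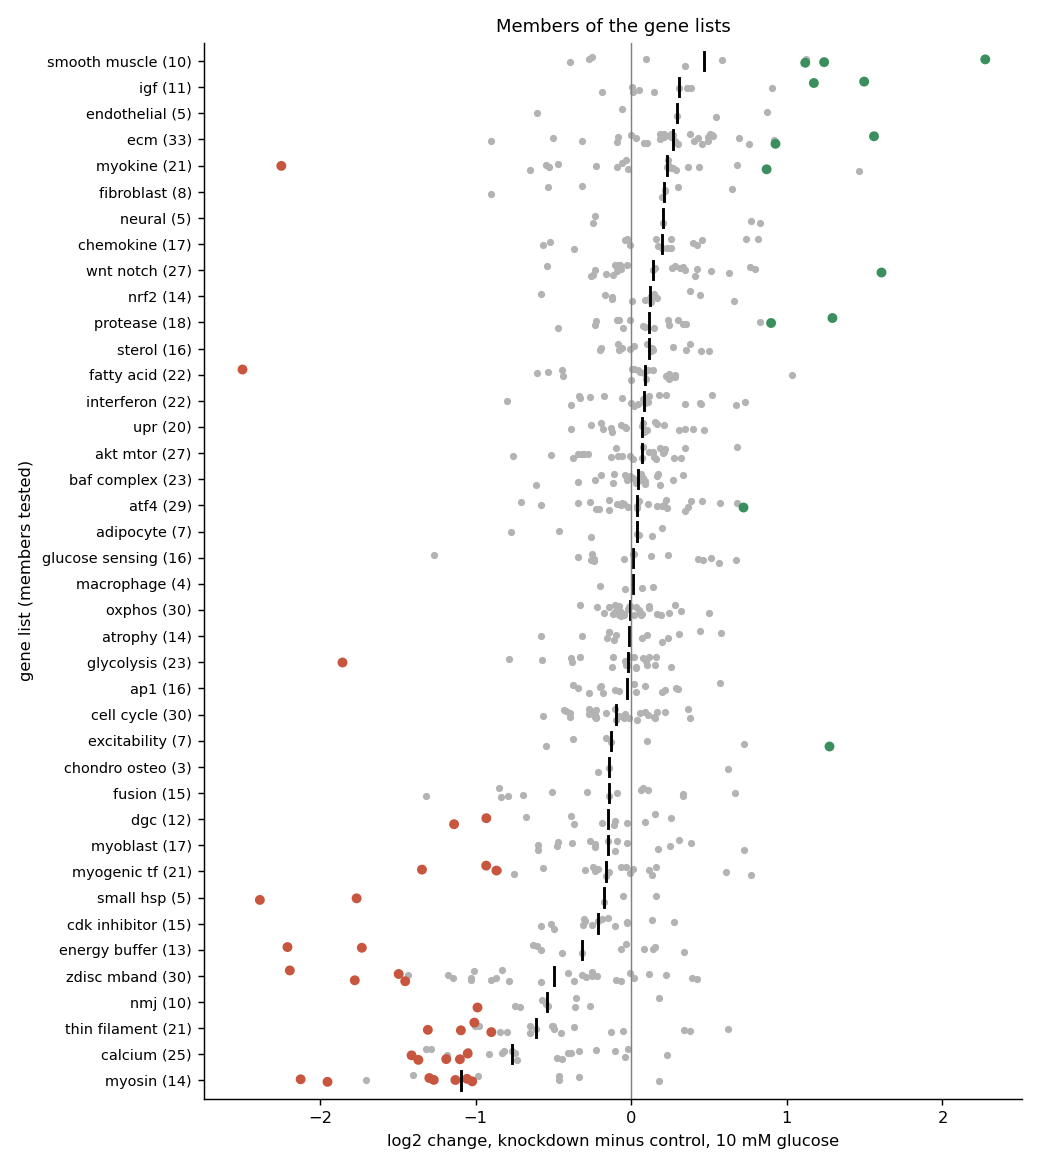
Log2 change (knockdown minus control at 10 mM) of each tested member of the gene lists, 1 row per list. Grey points were not called, red points were called lower, green points were called higher and the black bar is the list's median, which is -1.09 for the myosins and 0.01 over all tested genes.

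Of the metabolic lists, those of glycolysis and glycogen and of fatty acids held 1 call each. The share called over all tested genes was 1.12%, and 13.6% had an unadjusted p under 0.05. Pygm, the glycogen phosphorylase of muscle, read 8.06 and 8.39 against 6.44 and 6.29 (3.63-fold lower, adjusted p = 0.0295), the 1 call among 23 glycolysis and glycogen genes (median -0.02). Eno3, muscle enolase, came near (-0.79 ± 0.14, adjusted p = 0.0561), while Hk2 (hexokinase) was at -0.12 ± 0.13. Cd36 was the 1 call among 22 fatty acid genes (median 0.09). Of 30 genes of oxidative phosphorylation none was called and 0 had an unadjusted p under 0.05 (median -0.01, range -0.33 to 0.50). Txnip, the glucose-induced inhibitor of glucose uptake, read 9.97 and 9.77 against 10.36 and 10.51 (0.56 ± 0.24, adjusted p = 0.376). Slc2a4, the insulin-regulated glucose transporter GLUT4, was at the dim end and its replicates were far apart (3.89 and 3.04 against 2.39 and 2.01, -1.27 ± 0.54, adjusted p = 0.363). Deptor, an inhibitor of mTOR that has been linked to Baf60c in muscle, read 9.23 and 9.37 against 8.91 and 9.0. Its change of -0.34 ± 0.17 was not called (95% interval -0.74 to 0.06, adjusted p = 0.445). Akt2, the insulin-responsive kinase, was at -0.32 ± 0.12 (95% interval -0.59 to -0.04, adjusted p = 0.302). Of 27 AKT and mTOR pathway genes none was called (6 at an unadjusted p under 0.05, 4 of them lower; median 0.07).

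KATP channels, potassium channels that close when ATP is high, join membrane voltage to glucose metabolism. Their regulatory subunit genes Abcc8 (2.53 and 2.56 against 2.43 and 2.33) and Abcc9 (2.79 and 2.60 against 2.29 and 2.85) were dim on all 4 arrays and not called, and the pore genes Kcnj11 and Kcnj8 were below the filter. The 1 call among the 7 tested excitability genes was Scn7a, a sodium channel gene, which rose 2.41-fold (6.47 and 6.84 against 7.85 and 8.01, adjusted p = 0.0295). Over all tested genes 1.12% were called.

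The lists of matrix, protease and insulin-like growth factor genes held 6 rises and 0 falls among their calls, while other secreted or matrix genes outside them fell, among them Ctrb1, Adamtsl2, Nppc and Lama2. Of 33 matrix genes 2 rose, Postn and Thbs1, 0 fell, and 5 were below zero (median 0.27; at an unadjusted p under 0.05, 13 higher and 3 lower). Over all 13308 tested genes 0.428% were called higher, 6453 were below zero, and 903 were higher and 904 lower at an unadjusted p under 0.05; the counts of rises in the next lists stand against the same share. Thbs1, the matricellular thrombospondin, read 11.23 and 11.17 against 12.12 and 12.12 (1.90-fold higher, adjusted p = 0.0327). Collagen genes were not called; Col1a1 was at 0.69 ± 0.15 (adjusted p = 0.0913) and Col3a1 at 0.21 ± 0.19. Of 18 matrix proteases, Adamts12 and Mmp11 rose, by 1.29 ± 0.17 and 0.90 ± 0.15, and a second probe set of Mmp11 was higher by 0.82. Of 11 genes of the insulin-like growth factor system, Igfbp2 and Igfbp4 rose, and 10 were above zero (median 0.31). Igfbp4 read 6.79 and 7.08 against 8.06 and 8.17, whereas the ligand genes Igf1 and Igf2 were at -0.19 ± 0.20 and 0.00 ± 0.25. The myostatin and activin axis and other secreted factors of muscle went both ways, with Fst lower and Inhba, the subunit of activin A, which follistatin binds, higher (6.36 and 6.24 against 7.14 and 7.19, 1.83-fold, adjusted p = 0.0424), 2 calls among 21. Fgf21, a stress hormone of muscle and liver, was at 1.47 ± 0.27 and not called (adjusted p = 0.061). Rspo2, an enhancer of Wnt signalling, was the 1 call among 27 Wnt and Notch genes (2.37 and 2.47 against 3.66 and 4.39). Cth, which makes cysteine, was the 1 call among 29 amino acid response genes (0.72 ± 0.12, adjusted p = 0.0471).

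Smooth muscle markers moved beside these matrix genes. Of 10 tested, Cnn1, Myl9 and Tagln rose, 0 fell, and the median was 0.46. Myl9, a regulatory light chain of smooth and non-muscle myosin, read 7.12 and 6.81 against 8.33 and 8.08 (2.36-fold, adjusted p = 0.0491), and Tagln (transgelin) 7.02 and 7.54 against 8.34 and 8.45 (2.17-fold, adjusted p = 0.0469). Acta2, smooth muscle actin, was not called (11.64 and 11.76 against 11.83 and 11.76, 0.09 ± 0.14), and Myh11, the defining heavy chain of smooth muscle, was dim on all 4 arrays (2.96 and 2.80 against 2.55 and 2.67). The summed level of the 10 genes, on the log2 scale, was 12.47 and 12.59 in control and 12.64 and 12.62 in knockdown arrays. Most of this sum came from Acta2 and from Des, which is also a skeletal muscle gene (10.85 and 10.99 against 10.62 and 10.71). The sum therefore says little about Cnn1, Myl9 and Tagln. The summed level of the 8 tested fibroblast markers was 12.07 and 12.22 against 11.91 and 11.82, and none of them was called (4 at an unadjusted p under 0.05, 3 of them lower; median 0.21). The part of other cell types in the matrix and muscle changes was not tested. None of the 7 adipocyte, 4 macrophage, 5 endothelial, 3 cartilage and bone and 5 neural markers tested was called (at an unadjusted p under 0.05, 1, 0, 0, 1 and 2), with medians of 0.04, 0.01, 0.30, -0.14 and 0.20. Among all 13308 tested genes 1.12% were called and 13.6% had an unadjusted p under 0.05. With so few markers, no absence of a cell type is read from these counts.

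Other pathways gave no call in limma at all. No member was called in 15 lists with 291 tested genes, of which 24 were higher and 25 lower at an unadjusted p under 0.05; their median was 0.00. Over all tested genes 1.12% were called and 13.6% had an unadjusted p under 0.05, and these lists were grouped because they held no call. Besides those given above these lists were the remaining BAF subunits (23 genes, median 0.04), glucose sensing (16, median 0.01), chemokines (17, median 0.20), interferon response (22, median 0.08), unfolded protein response (20, median 0.07), NRF2 targets (14, median 0.12), cell cycle (30, median -0.10), inhibitors of cyclin-dependent kinases (15, median -0.21), sterol synthesis (16, median 0.11), atrophy genes (14, median -0.02) and immediate early genes (16, median -0.03). Among BAF subunits the ATPase gene Smarca4 (Brg1) read 8.77 and 8.79 against 8.95 and 8.95 (0.17 ± 0.13), the core gene Smarcc1 was at 0.33 ± 0.12 and the accessory gene Bcl7c at -0.61 ± 0.14 (adjusted p = 0.625, 0.294 and 0.107). Ddit4, a stress-induced mTOR inhibitor, was at 0.68 ± 0.14 (adjusted p = 0.0785), Slc2a1, the basal glucose transporter GLUT1, at 0.51 ± 0.13 (adjusted p = 0.13), and Cdkn1a (p21) at -0.58 ± 0.14 (adjusted p = 0.129).

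The effect of the knockdown at 1 mM glucose was set beside these values; the 2 comparisons share no array, only the estimate of spread. At 1 mM limma called 198 genes (1.49%), 167 lower (1.25%) and 31 higher (0.233%). The genes called in both and in the same direction were 65, which is 43.6% of the calls at 10 mM and 32.8% of those at 1 mM. For falls they were 58 (63.0% of those at 10 mM, 34.7% of those at 1 mM) and for rises 7 (12.3% and 22.6%). Of the 27 muscle genes that fell at 10 mM, 23 were also called lower at 1 mM, and 19 had the smaller fall at 10 mM. The probe set shared by Smarcd3 and Chpf2 likewise fell by 1.98 at 10 mM and by 2.62 at 1 mM. Its interaction of 0.64 ± 0.30 was not called (adjusted p = 0.673), and its bearing on the muscle genes was not tested. Myom1 fell by 1.78 at 10 mM and 3.0 at 1 mM, Hspb7 by 1.77 and 3.07, Pygm by 1.86 and 2.83, and Mef2c by 1.35 and 2.17. Over the 130 genes of the muscle lists the median was -0.56 at 10 mM and -0.80 at 1 mM. Ctrb1 and Fst went the other way, at -2.59 and -2.25 at 10 mM against -1.6 and -1.30 at 1 mM. For Myom1, Hspb7, Pygm, Mef2c, Ctrb1 and Fst the difference between glucose levels was not called in limma (adjusted p of the interaction 0.389 to 0.59). Across all tested genes, which are not independent and share the knockdown construct, the changes at both glucose levels correlated at r = 0.41.

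**Figure D4:**
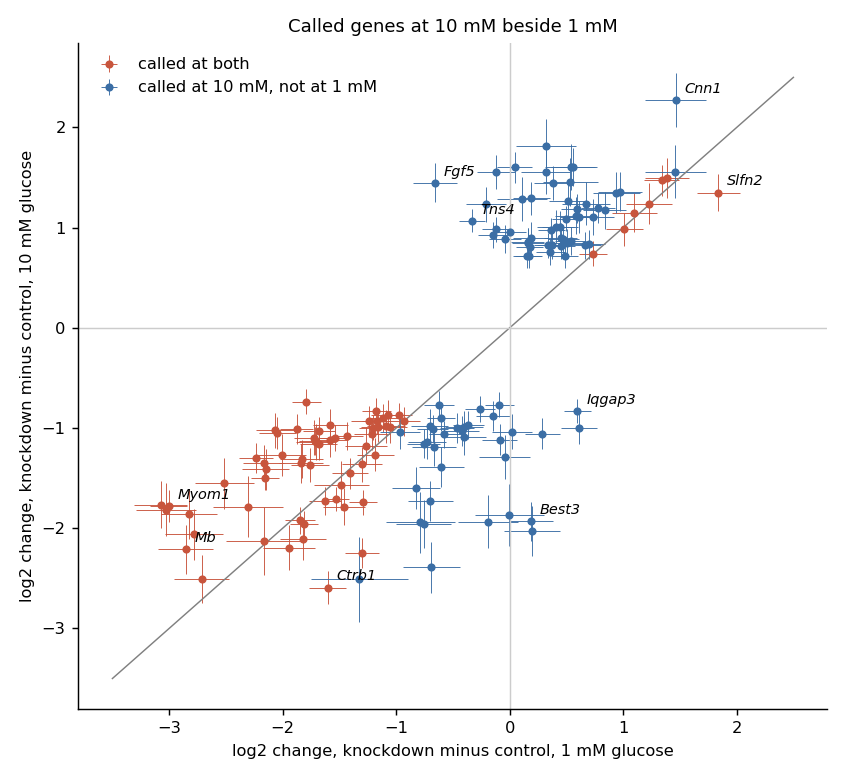
Log2 change with knockdown at 1 mM glucose (horizontal) and at 10 mM glucose (vertical) for the 149 genes called at 10 mM, with SE bars and the line of equal change. Red points were called at both glucose levels and blue points at 10 mM alone; Myom1 lies at -3.0 and -1.78, and Fgf5 at -0.66 and 1.45.

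The other 84 genes called at 10 mM were not called at 1 mM. The difference between glucose levels was tested over all tested genes as an interaction, the change at 10 mM minus the change at 1 mM. limma called 0 genes (0%), with 1049 at an unadjusted p under 0.05 (7.88%) and 1 gene, Thbs1, was called under the trended and robust form of the test. Genes among those with the smallest p in that test are given as values, and Thbs1 for its call. Fgf5 read 3.43 and 2.95 in control against 4.60 and 4.68 in knockdown arrays at 10 mM, but 2.71 and 2.80 against 2.27 and 1.92 at 1 mM, where all arrays were dim. Best3 read 4.05 and 4.58 against 2.36 and 2.41 at 10 mM and 2.18 and 2.22 against 2.25 and 2.53 at 1 mM. Iqgap3, a scaffold protein of dividing cells, read 5.72 and 5.72 against 4.82 and 4.94 at 10 mM and 2.92 and 2.90 against 3.51 and 3.5 at 1 mM. At 1 mM Best3 was also dim on all 4 arrays and Iqgap3 in its controls, and none of these 3 changes at 1 mM was called, so no reversal of sign is read from them. Their interaction terms were 2.11 ± 0.28, -2.12 ± 0.28 and -1.43 ± 0.17 (adjusted p = 0.235 for all). Kcnn3, a calcium-activated potassium channel gene, was 0.38 lower at 10 mM (adjusted p = 0.449) and 2.27 lower at 1 mM (adjusted p = 0.00329), and its interaction of 1.89 ± 0.27 was not called (adjusted p = 0.235). Rabggtb was 0.78 lower at 10 mM, which was not called (adjusted p = 0.0561), and 0.85 higher at 1 mM, which was (adjusted p = 0.0362). Its interaction of -1.63 ± 0.20 was not called (adjusted p = 0.235). Trabd2b rose by 1.6 at 10 mM and was at 0.04 at 1 mM, with an interaction of 1.56 ± 0.22 (adjusted p = 0.235). Thbs1 had an interaction of 1.07, with an adjusted p = 0.0104 in the trended and robust form and 0.336 otherwise; it rose by 0.93 at 10 mM and was at -0.15 at 1 mM. Of the 57 genes that rose at 10 mM, 55 had the larger change there, and of the 92 that fell, 49; these genes were chosen on their values at 10 mM, which favours the larger change there, and of the 198 genes called at 1 mM only 20 were larger at 10 mM.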

How the data were processed

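Total RNA of 8 C2C12 myotube samples was hybridised to Affymetrix Mouse Gene ST 2.1 arrays. The deposited table holds log2 expression values made by the authors with RMA in affy, per the submitters' processing notes; versions and the build of the probe design are not given in the sources used here. RMA gives the arrays a common distribution and shrinks differences of dim probe sets, so their changes may be understated. Of 41345 probe sets, 23521 had exactly 1 gene, 1814 several and 16010 none. Each gene was represented by its probe set with the highest mean over 8 arrays (1082 of 22180 genes had more than 1), and genes with a mean under the 40th percentile (log2 2.30) were left out, which left 13308. Smarcd3 shares its probe set with Chpf2, which was fitted with the tested genes.

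The fit was limma 3.58.1 in R 4.3.3 (lmFit, eBayes), 1 mean per group over all 8 arrays, two-sided, with Benjamini-Hochberg adjustment; residual degrees of freedom were 4 and prior ones 3.36. The number of arrays limits the precision, with a median SE of 0.173. On simulated data for this comparison with 13308 genes, of which 200 were changed, 54% of changes of size 1 and 89% of size 2 (log2) were recovered. The simulation used normal noise with each gene's observed spread and no other change, so recovery on the real arrays may be different. The rule for naming genes took 7 genes followed whatever their change and the 15 largest changes per direction among calls with separate groups. Predicted, clone-named and small RNA genes and sensory receptors were skipped. It also took up to 5 called or 2 uncalled members of each list with the smallest p, and 5 genes per direction for the interaction. Not all genes that the rule took are given, and no rule set which were left out. For the interaction, Tns4, Macrod1 and Dthd1 are among those left out. Others given beside these were chosen after their values were seen. The members and lists were chosen with earlier results of these data known. Promoters are from RefSeq's table for GRCm38.p6, matched by symbol. Alternatives were other filters, centring, quantile normalization, the trended and robust eBayes, the mean of probe sets, the 4 arrays alone, a replicate block and leaving out each array.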

Additional observations from a re-analysis of the deposited data

How the results depend on the processing

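The number of genes called at 10 mM (149; 57 higher, 92 lower) stayed within 1.5 times with centred arrays (148), quantile normalization (170) and the mean of probe sets (155). It was 69 (23 higher, 46 lower) with no filter on dim genes, 291 (125 and 166) with a filter at the 60th percentile, 467 (206 and 261) with the trended and robust eBayes, and 6 (0 and 6) with the 4 arrays alone. The genes shared with the 149 were 67, 104, 141 and 6 in that order. The 6 were Ctrb1, Myl4, Fst, Spats2, Mb and Pgm5. The differences of replicate 1 and 2 correlated at -0.01 between control and knockdown at 10 mM and between -0.04 and 0.11 over all pairs of groups. These values show no large shift shared by replicate number. They cannot tell whether samples were prepared in pairs, which the labels do not say. With the replicate number as a block the count was 73 (25 higher, 48 lower). Leaving out 1 array gave 0 to 76 calls (0 to 23 higher, 0 to 53 lower). The called muscle list members (27) were 15 with no filter, 41 with the stricter filter, 56 with the trended and robust form, 2 with the 4 arrays alone and 0 to 21 with 1 array left out. The count at 1 mM (198) was 437 with the stricter filter, 598 with the trended and robust form and 30 to 129 with 1 array left out, and the interaction went from 0 to 1 call in the trended and robust form. The target probe set stayed at -1.98 with the 4 arrays alone (adjusted p = 0.0793) and lay between -2.28 and -1.68 with 1 array at 10 mM left out (adjusted p = 0.0519 to 0.121). An arm with 1 array left was assumed to vary like the other groups. Signs turned for uncalled genes only: Smarcd1 was at -0.079 with the mean of probe sets and at -0.20 to 0.32 with 1 array left out, and with 1 array left out Smarcd2 was at -0.19 to 0.21, Cd14 at -0.24 to 0.51 and Tyrobp at -0.63 to 0.22. Low signal limits the 22 called genes with a dim group mean. Where a count moved with fewer or more genes tested, or fewer arrays, that follows from how the alternative was made; for the others the cause was not tested.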

Other observations

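Outside the lists, several further genes were among the calls, some of them genes of muscle. They were chosen after their values were seen and are given as values. Mir1a-1hg, the host transcript of the muscle microRNA miR-1a-1, went from 4.13 and 4.03 on the control arrays to 2.5 and 2.20 on the knockdown arrays at 10 mM (3.32-fold lower, adjusted p = 0.0226 in limma). Myl6b, a myosin light chain, read 7.80 and 7.70 against 6.0 and 6.02, and Clic5, an intracellular chloride channel protein, 5.74 and 5.77 against 3.99 and 4.11 (3.35-fold and 3.26-fold lower, adjusted p = 0.00324 for both). Spats2 read 8.17 and 8.22 against 6.28 and 6.27, a 3.79-fold fall, and the change at 1 mM was 3.60-fold. Tmem182, a membrane protein of muscle, fell 2.23-fold and Cavin4, a muscle caveolar protein, 1.95-fold.

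Further single genes, also chosen after their values were seen, were the following. Prkaa2, the catalytic AMPK subunit that is abundant in muscle, read 6.42 and 6.37 against 5.35 and 5.28 (2.11-fold lower, adjusted p = 0.0284), and Sik1, a relative of AMPK, 8.01 and 8.13 against 7.21 and 7.28 (1.77-fold lower, adjusted p = 0.0416). Both were also called lower at 1 mM. The adhesion genes Itgb3 (an integrin subunit, 7.16 and 7.11 against 8.23 and 8.22) and Flna (filamin A, 9.27 and 9.23 against 9.94 and 9.99) were 2.13-fold and 1.64-fold higher at 10 mM, and at 1 mM neither was called (0.50 and 0.17 on the log2 scale). The chemokine gene Cxcl13, which is not among the 17 tested members of the chemokine list (0 called), fell by 1.79 ± 0.18 and the cytokine gene Il33 by 1.57 ± 0.24, each also called lower at 1 mM. Dim second probe sets of Tmeff1, Hoxb5 and Ryr1, which were called through another probe set, differed by 0.00, 0.06 and -0.35.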
